A study of Rattus norvegicus with 29 samples.

Results

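Of 51 genes of innate immune and interferon signalling listed by function, 48 had a probe set with exactly that gene symbol on arrays of P rat nucleus accumbens shell, and 36 were bright enough to be tested. The list holds interferon-stimulated genes, nucleic acid sensors and Toll-like receptors, interferon receptors with their JAK-STAT and interferon regulatory factors, antigen processing genes, Toll-like receptor adaptors, NF-kB subunits and inhibitors, cytokines with their receptors, and chemokines. Tlr3, Tgfbr2 and Psmb8x had no probe set of that symbol. Mx1, Oas1a, Ifit3, Ifih1, Tlr4, Tlr7, Nfkb2, Il1a, Il6, Tnf, Ccl2 and Cxcl10 had probe sets among the dimmest 30% of the array, at a mean below 6.86 on the log2 scale. These 12 genes were left out of the main test, and their differences come from a fit without that filter. The members stood among 11328 tested genes.

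The study measured total RNA of the accumbens shell, a ventral striatal region linked to reward, on Affymetrix arrays of P (alcohol-preferring) rats, a line bred for high voluntary alcohol drinking. The Water_only group had water alone (9 arrays), the Limited_Ethanol group had ethanol with limited access (10 arrays) and the Continuous_ethanol group had ethanol continuously (10 arrays). Age, sex, the ethanol concentration and the length of access are not given in the sources used here, and all animals shared the P background. The series' design names 10 samples a group, and 9 water arrays were analysed here. Whether each array stands for its own animal is not stated in the labels, and the p-values therefore rest on a spread between arrays that may in part be technical.

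Type I interferons bind the Ifnar receptor, and receptor kinases then activate Stat2, which joins Irf9 at the interferon-stimulated response element of target promoters. Irf7 is itself a target and amplifies the response, while Usp18 and the Socs proteins restrain it. Toll-like receptors act through Myd88, Irak and Traf6 on NF-kB, which drives cytokines such as Il1b, Il6 and Tnf, and in brain these pathways are best known from microglia, endothelium and meningeal cells.

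Of the 48 members with a probe set, 39 matched a promoter in RefSeq (build GRCr8, 250 bases before to 50 bases after the gene start). The interferon-stimulated response element, searched on both strands as GAAANNGAAA, stood in the windows of 10 of these 39 members (25.6%), against 1312 of 33469 promoters (3.92%). The 10 were Oas1a, Ifit3, Irf7, B2m, Ifih1, Tap1, Myd88, Casp1, Il6st and Cxcl10. The 250 bases before the start are shown for Irf7 and for 3 members that passed a correlation with Irf7 (below), each 5′ to 3′ in the direction of the gene with the element in capitals, to show where the element lies in genes compared with Irf7. Of these, Oas1a and B2m passed by r alone, and Isg15 and Usp18, the members closest to Irf7, are not shown. Irf9 also passed, and its window held no element, while Ifih1 and Tap1 held the element and did not pass. A link between the element and the correlation was not tested. On the minus strand the element reads TTTCNNTTTC. In Oas1a, which encodes an antiviral oligoadenylate synthetase, 2 overlapping copies began 41 and 35 bases before the start. In Ifit3, an antiviral protein with tetratricopeptide repeats, the element began 44 bases before the start, and in Irf7 it began 69 bases before it. In B2m, the light chain of class I antigen presentation, it began 150 bases before the start. The windows were chr12:41330216-41330465 (plus strand) for Oas1a, chr1:241527076-241527325 (plus strand) for Ifit3, chr1:205800024-205800273 (minus strand) for Irf7 and chr3:129549080-129549329 (plus strand) for B2m.
Oas1a: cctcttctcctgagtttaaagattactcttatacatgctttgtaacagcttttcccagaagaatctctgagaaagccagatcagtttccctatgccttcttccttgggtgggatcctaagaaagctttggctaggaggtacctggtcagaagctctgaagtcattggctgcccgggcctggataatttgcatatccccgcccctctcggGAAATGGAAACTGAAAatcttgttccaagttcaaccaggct
Ifit3: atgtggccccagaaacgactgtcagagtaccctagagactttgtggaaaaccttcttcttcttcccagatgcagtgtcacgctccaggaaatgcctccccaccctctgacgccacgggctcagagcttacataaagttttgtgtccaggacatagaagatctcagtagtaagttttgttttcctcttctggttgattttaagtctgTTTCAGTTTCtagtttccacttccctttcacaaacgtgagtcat
Irf7: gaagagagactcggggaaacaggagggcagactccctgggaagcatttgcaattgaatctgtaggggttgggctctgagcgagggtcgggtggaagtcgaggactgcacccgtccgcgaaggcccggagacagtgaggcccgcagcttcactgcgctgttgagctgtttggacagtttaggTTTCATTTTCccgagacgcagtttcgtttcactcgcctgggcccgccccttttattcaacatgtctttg
B2m: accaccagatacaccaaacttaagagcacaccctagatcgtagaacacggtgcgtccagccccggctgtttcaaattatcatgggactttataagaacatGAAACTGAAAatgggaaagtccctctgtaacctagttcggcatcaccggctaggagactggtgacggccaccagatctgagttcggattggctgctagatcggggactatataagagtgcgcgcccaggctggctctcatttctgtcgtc
The gamma-activated site, TTCNNNGAA, stood in 4 of 39 member windows (10.3%), against 8.87% of all promoters. The NF-kB consensus stood in 13 of 39 (33.3%), against 4.18%, and in 3 of the 5 windows of NF-kB subunits and inhibitors. A match describes the letters of the window only, not a bound site. Mx2, Ifit2, Isg15, Usp18, Traf6, Relb, Ikbkb, Ccl2 and Ccl3 are named only.

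Over all probe sets, the deposited values correlated between arrays at r = 0.986 to 0.998, no pair of arrays was identical, and array medians lay between 8.17 and 8.21 log2 units. Markers of medium spiny neurons, the main cell type of the striatum, were bright, and 14 of 14 with a probe set passed the filter. Water replicates 2, 5 and 6 and limited replicates 6 and 7 lay apart from the other arrays on the second principal component (16.5% of the variance), at scores of -15.6 to -22.2, so results that rest on them are given with and without these 5 arrays. Continuous replicate 4 lay at the other end, at 20.2. Over the 21729 tested probe sets, water replicate 9 was least like its own group, with a median r of 0.979 where the next lowest array had 0.987. In tissue homogenate, fewer cells of a type and less RNA per cell cannot be told apart.

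Continuous ethanol was compared with water to ask whether innate immune transcripts differ under unlimited access. No member passed an adjusted p of 0.05 (limma, Benjamini-Hochberg over 21729 probe sets), where 33 of all tested probe sets did (0.152%). At an unadjusted p of 0.05, 7 of 36 members passed (19.4%), near the 16.1% of all tested probe sets. At that level 2 members were higher, Mx2 and Ifit2, against 9.62% of all tested probe sets, and 5 were lower, Irf3, Ifngr1, Ifnar1, Socs3 and Il1r1, against 6.48%. The median difference of the 36 members was -0.04, against 0.00 for all tested probe sets, with 13 members positive and 23 negative. Without the 5 arrays apart, 0 members passed the adjusted p and 7 the unadjusted p (19.4%), where 9.92% of all tested probe sets passed the latter; this gap between shares has no test.

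**Figure D1:**
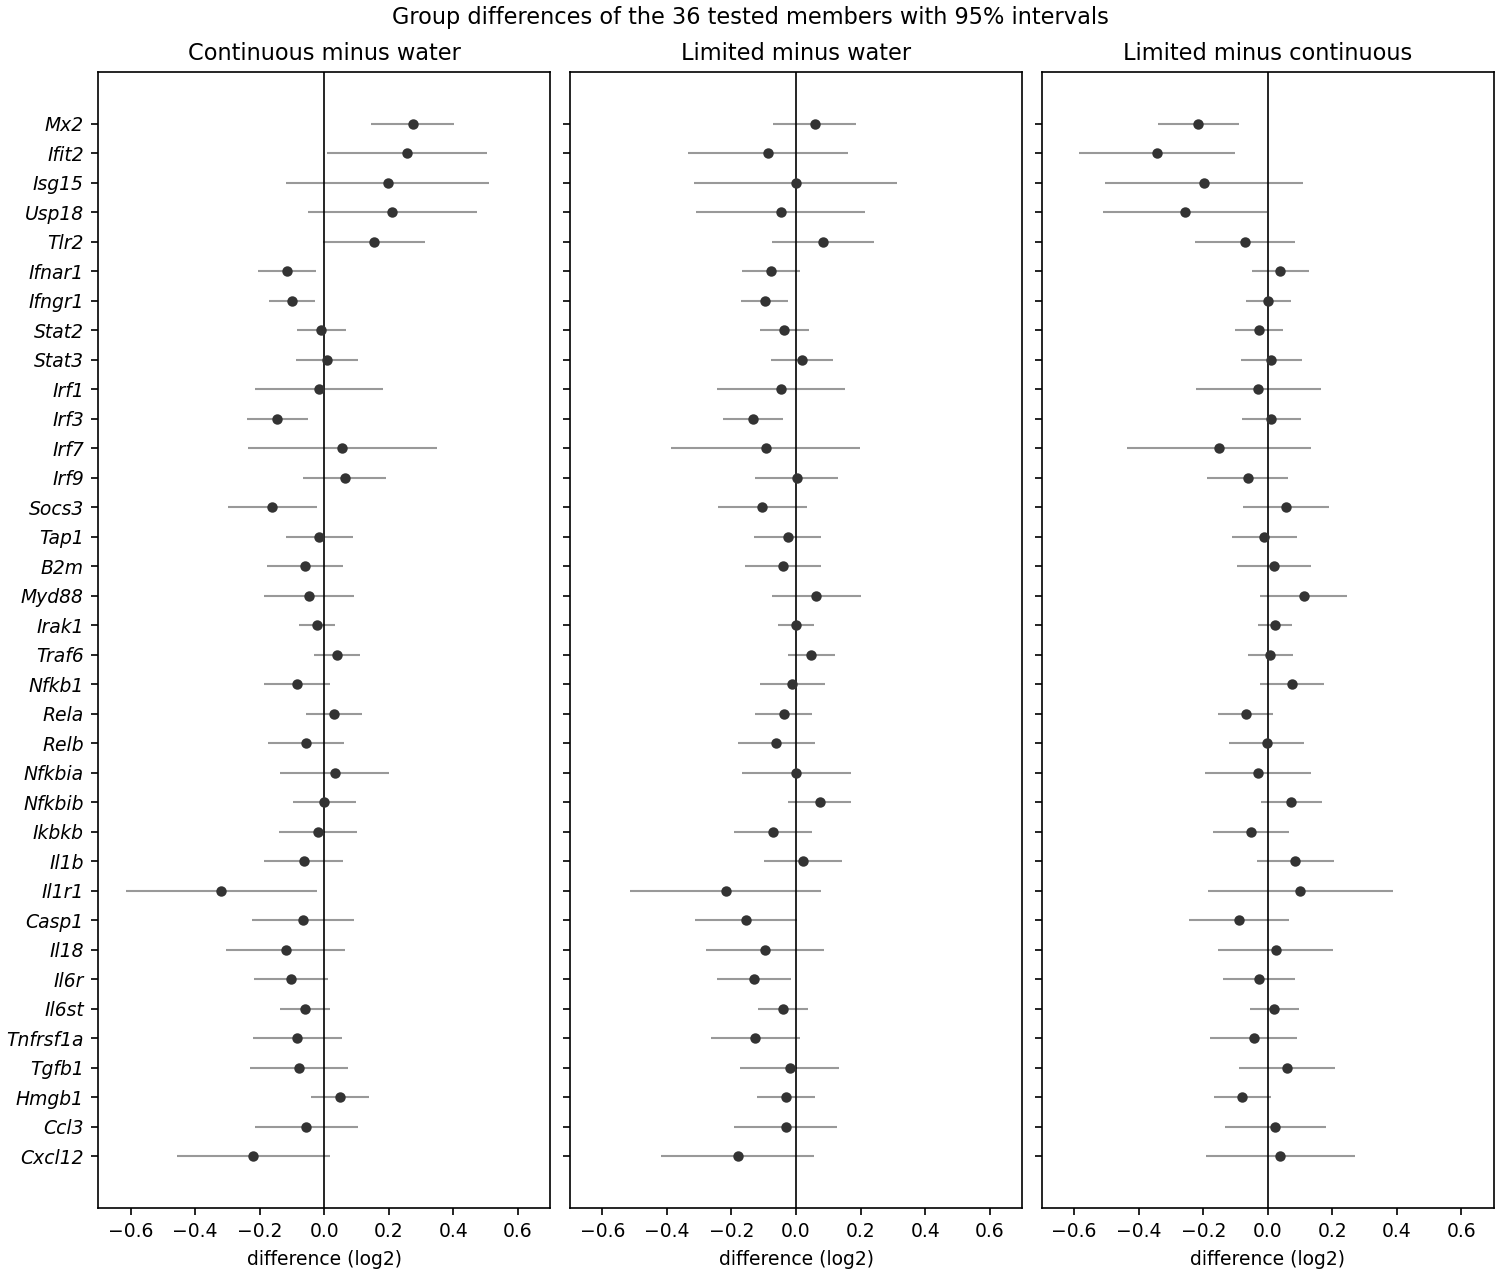
Differences between group means (log2) with 95% intervals for the 36 tested members, ordered by role, in the 3 comparisons. The intervals of Mx2 and Ifit2 lie above 0 in continuous minus water and below 0 in limited minus continuous, and no member passed the adjusted test in any comparison.

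Among the interferon-stimulated members, Mx2, a dynamin-like antiviral GTPase, came closest to the threshold. Its expression lay between 8.28 and 8.66 (median 8.55) on the water arrays, between 8.32 and 8.76 (median 8.56) on the limited arrays and between 8.57 and 9.01 (median 8.80) on the continuous arrays. All 10 continuous arrays lay above the water mean, and the ranges overlapped only between 8.57 and 8.66. The difference of continuous minus water was 0.27 ± 0.06 (SE, log2), a 1.21-fold ratio with an interval of 0.14 to 0.40 log2 units, and its adjusted p was 0.0625. It passed the adjusted p in a fit with a stricter filter (adjusted p = 0.0497) and in one with leptomeningeal markers as a covariate (adjusted p = 0.0474). With the SD of each array's values as a covariate the difference was 0.19 (adjusted p = 0.651). Over 16 alternatives it ranged from 0.19 to 0.30. It was 0.26 without continuous replicate 4 (adjusted p = 0.116) and 0.28 without water replicate 9 (adjusted p = 0.0779). Without water replicate 5, one of the 5 arrays apart, it was 0.25 (adjusted p = 0.165). Array SD was 2.18 ± 0.01 on the continuous arrays and 2.16 ± 0.02 on the water arrays (SD; exact two-sided permutation p = 0.0157, adjusted p = 0.0786 over 10 array measures). Within groups Mx2 correlated with array SD at r = 0.54 and rho = 0.46 (adjusted permutation p = 0.0377 and 0.165 over 10 measures, r = 0.47 without the 2 arrays farthest on array SD), and none of the other 9 measures passed for Mx2. A second, dim Mx2 probe set (mean 4.90) differed by -0.10 ± 0.06, so the direction of Mx2 rests on the brighter one.

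Ifit2, an antiviral protein induced by interferon, lay between 7.78 and 8.34 (median 8.08) with water, between 7.50 and 8.36 (median 8.03) with limited access and between 7.91 and 9.02 (median 8.19) with continuous access. Continuous replicate 8 was the highest of all arrays, and the 3 groups overlapped. The difference of continuous minus water was 0.26 ± 0.12 (adjusted p = 0.293, 8 of 10 arrays above the water mean), and a second probe set gave 0.23 ± 0.10. Usp18, the protease that removes Isg15 from proteins and damps interferon signalling, had medians of 7.72, 7.75 and 7.95 on water, limited and continuous arrays, with highest values of 8.26, 8.15 and 8.66. Its difference was 0.21 ± 0.13 (adjusted p = 0.416), and 0.35 ± 0.13 without the 5 arrays apart (adjusted p = 0.408). Isg15, the ubiquitin-like modifier, ranged from 8.45 to 9.16 (median 8.52) with water, from 8.40 to 9.09 (median 8.66) with limited access and from 7.98 to 9.66 (median 8.88) with continuous access. The continuous arrays thus held both the lowest and the highest Isg15 value, and the difference was 0.20 ± 0.15 (adjusted p = 0.534). All 4 tested interferon-stimulated members had a positive difference from water, between 0.20 and 0.27, and these were positive in every alternative that tested them. Over all tested probe sets 52.5% were positive, and the interferon-stimulated members covaried over the same arrays (below). Of 30 other tested interferon response genes from a wider list (below), 13 were positive and 17 negative, with a median of -0.0047. The signs of the 4 thus do not stand for interferon response genes in general. Among the dim ones, without the filter, Ifit3 differed by 0.26 ± 0.13 (adjusted p = 0.317), Mx1 by 0.16 ± 0.10 (adjusted p = 0.420) and Oas1a by 0.06 ± 0.09 (adjusted p = 0.769).

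**Figure D2:**
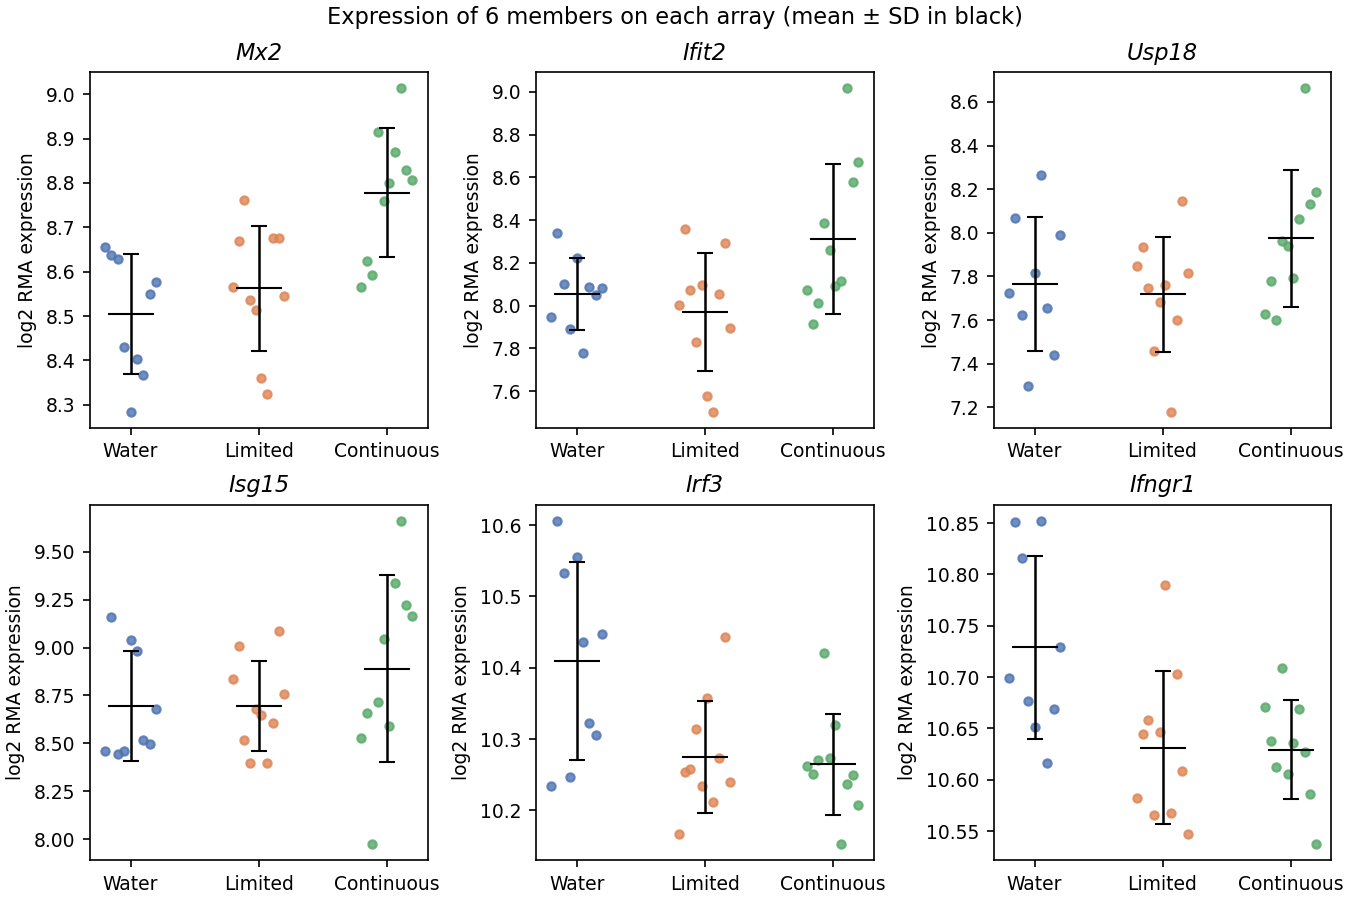
Expression (log2) of Mx2, Ifit2, Usp18, Isg15, Irf3 and Ifngr1 on each array, by group, with the mean and SD in black (9 water, 10 limited and 10 continuous arrays). Continuous arrays reach the highest values of Mx2 (9.01) and Isg15 (9.66), while water arrays reach the highest values of Irf3 (10.61) and Ifngr1 (10.85), and groups overlap in each panel.

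The receptors and transcription factors upstream of these genes had differences of either sign, 3 positive and 6 negative. Irf3, the factor activated by cytosolic nucleic acid sensing, lay between 10.23 and 10.61 (median 10.44) with water, between 10.17 and 10.44 (median 10.26) with limited access and between 10.15 and 10.42 (median 10.26) with continuous access. Of the continuous arrays 9 of 10 lay below the water mean, and the difference was -0.15 ± 0.05 (adjusted p = 0.158). Without the 5 arrays apart it was -0.08 ± 0.05 (adjusted p = 0.545). Ifngr1, the ligand-binding chain of the interferon gamma receptor, lay between 10.62 and 10.85 with water and between 10.54 and 10.71 with continuous access, a difference of -0.10 ± 0.04 (adjusted p = 0.191) with all 10 continuous arrays below the water mean. Ifnar1, a chain of the type I interferon receptor, differed by -0.12 ± 0.04 at its brightest probe set (adjusted p = 0.215), but its 6 probe sets ranged from -0.12 to 0.15, so no direction can be given for the gene. Socs3, an inhibitor of JAK-STAT signalling, lay between 7.01 and 7.53 (median 7.22) with water and between 6.95 and 7.13 (median 7.03) with continuous access. Its difference was -0.16 ± 0.07 (adjusted p = 0.245), and -0.10 ± 0.04 without the 5 arrays apart (adjusted p = 0.451). The signal transducers Stat2 and Stat3 and the factors Irf1, Irf7 and Irf9 differed by -0.02 to 0.06 at their brightest probe sets, with adjusted p of 0.633 or more. A second tested probe set of Stat3 differed by 0.18 ± 0.09 (adjusted p = 0.312). The interval for Irf7, -0.24 to 0.35, was wide.

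The antigen processing genes B2m and Tap1, the peptide transporter, differed by -0.06 ± 0.06 and -0.02 ± 0.05. Tlr2, a receptor for bacterial lipoproteins, differed by 0.15 ± 0.08 (adjusted p = 0.325), with 8 of 10 continuous arrays above the water mean. The dim sensors Ifih1 (cytosolic double-stranded RNA), Tlr4 (lipopolysaccharide) and Tlr7 (single-stranded RNA) differed by 0.01, -0.09 and 0.13 without the filter. The adaptors Myd88, Irak1 and Traf6 differed by -0.05, -0.02 and 0.04, and a second bright probe set of Traf6 differed by 0.15 ± 0.05 (adjusted p = 0.208). The brightest probe set of Irak1 had one of the smallest spreads on the array, with an SD within groups of 0.05. Its interval thus reached only from -0.08 to 0.03. A second tested probe set of Irak1 differed by -0.09 ± 0.05 (adjusted p = 0.345), so the narrow interval holds for the brightest one only. Of the NF-kB genes, the subunits Nfkb1, Rela and Relb, the inhibitors Nfkbia and Nfkbib and the kinase Ikbkb differed by -0.09 to 0.03, and none passed even the unadjusted p. The dim subunit Nfkb2 differed by -0.17 ± 0.07 without the filter (adjusted p = 0.267, all 10 continuous arrays below the water mean).

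Among cytokines and receptors 8 of 9 tested differences from water were negative, with a median of -0.08. Il1r1, the signalling receptor of interleukin-1, lay between 7.98 and 9.16 (median 8.32) with water, between 7.91 and 8.79 (median 8.18) with limited access and between 7.26 and 8.61 (median 8.14) with continuous access. Its difference was -0.32 ± 0.14 (adjusted p = 0.277), with 9 of 10 continuous arrays below the water mean, and it was -0.15 ± 0.15 without the 5 arrays apart (adjusted p = 0.754). Casp1, the inflammasome protease, differed by -0.07 and its substrate Il18 by -0.12. The cytokine Il1b, the interleukin-6 receptor chains Il6r and Il6st, the receptor Tnfrsf1a and the growth factor Tgfb1 differed by -0.10 to -0.06. Hmgb1, a chromatin protein released as a danger signal, differed by 0.05. The dim cytokine Tnf lay between 6.29 and 6.92 with water and between 6.15 and 6.46 with continuous access, and its difference without the filter was -0.21 ± 0.07 (adjusted p = 0.187). Il1a and Il6 were also dim and differed by -0.13 and 0.10. Of the chemokines, Cxcl12 differed by -0.22 ± 0.12 (adjusted p = 0.345), with further probe sets at -0.28 and -0.16. Over the arrays these correlated with the brightest probe set of Cxcl12 at r = 0.89 and -0.09, so the last did not follow it. Ccl3 differed by -0.06, and the dim Ccl2 and Cxcl10 by 0.10 and 0.11.

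Limited access was compared with water in the same fit, and this comparison shares its water arrays with the one above. No member passed the adjusted p, and no probe set of the array did (0%). At an unadjusted p of 0.05 there were 965 probe sets (4.44%) and 3 of 36 members (8.33%), namely Irf3, Ifngr1 and Il6r, all lower, against 2.34% of probe sets in that direction. Without the 5 arrays apart the count was also 3, against 4.52% of probe sets. Irf3 differed by -0.13 ± 0.05 and Ifngr1 by -0.10 ± 0.04 (adjusted p = 0.972 for each), with 9 of 10 limited arrays below the water mean in both. Il6r, the ligand-binding chain for interleukin-6, lay between 8.08 and 8.61 with water and between 7.84 and 8.37 with limited access, a difference of -0.13 ± 0.06. Without the 5 arrays apart Irf3 differed by -0.08 ± 0.05 and Il6r by -0.08 ± 0.04. The interferon-stimulated members differed from water by 0.06 ± 0.06 for Mx2, -0.09 ± 0.12 for Ifit2, -0.05 ± 0.13 for Usp18 and -0.00 ± 0.15 for Isg15. Casp1 differed by -0.16 ± 0.08, Il1r1 by -0.22 ± 0.14 and Cxcl12 by -0.18 ± 0.12, and none passed the unadjusted p. The median of the 36 members was -0.04, against 0.00 for all tested probe sets.

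The direct comparison of limited with continuous access gave no member past the adjusted p, against 1 probe set of the array (0.0046%). At an unadjusted p of 0.05, 3 of 36 members passed (8.33%), near the 9.31% of all tested probe sets, and all 3 were interferon-stimulated and lower with limited access, a direction that 5.74% of probe sets shared at that level. Mx2 was lower with limited access by a difference of -0.21 ± 0.06, with all 10 limited arrays below the continuous mean. Ifit2 differed by -0.34 ± 0.12, with 9 of 10 limited arrays below. Both had an adjusted p of 0.526. Usp18 differed by -0.26 ± 0.12 (adjusted p = 0.536), and Isg15 by -0.20 ± 0.15 (adjusted p = 0.683). Without the 5 arrays apart, 2 members passed the unadjusted p, against 4.24% of probe sets, and Mx2 differed by -0.16 ± 0.06 and Ifit2 by -0.24 ± 0.11. The dim Ifit3 differed by -0.30 ± 0.12 without the filter (adjusted p = 0.510). The test over all 3 groups also called no member, against 18 probe sets (0.0828%), and Mx2 had the smallest adjusted p, 0.150. No member separated 2 groups without overlap in any comparison, against 0.0322%, 0.0046% and 0% of all tested probe sets in continuous minus water, limited minus water and limited minus continuous.

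Beyond group means, several members varied widely between arrays of the same group, interferon-linked ones among them. The SD within groups was 0.36 for Isg15, larger than that of 97.7% of tested probe sets, and Irf7, Usp18 and Ifit2 stood at the percentiles 97.2, 96.3 and 95.6. The wide spread was not particular to interferon-linked members. Il1r1 and Cxcl12 stood at the percentiles 97.3 and 94.97, while the interferon-stimulated Mx2 stood at 67.5. The median of the 36 members was 0.137 and that of all tested probe sets 0.118. At the other end stood Irak1, at the percentile 0.91, and Ifngr1, at 10.5. With each group centred on its mean, the 7 interferon-stimulated members correlated with one another over the 29 arrays at a median r of 0.44 over 21 pairs, against a median of 0.19 over the 1128 pairs of all 48 members. The pairs share arrays and their quality, so these values are a description.

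**Figure D3:**
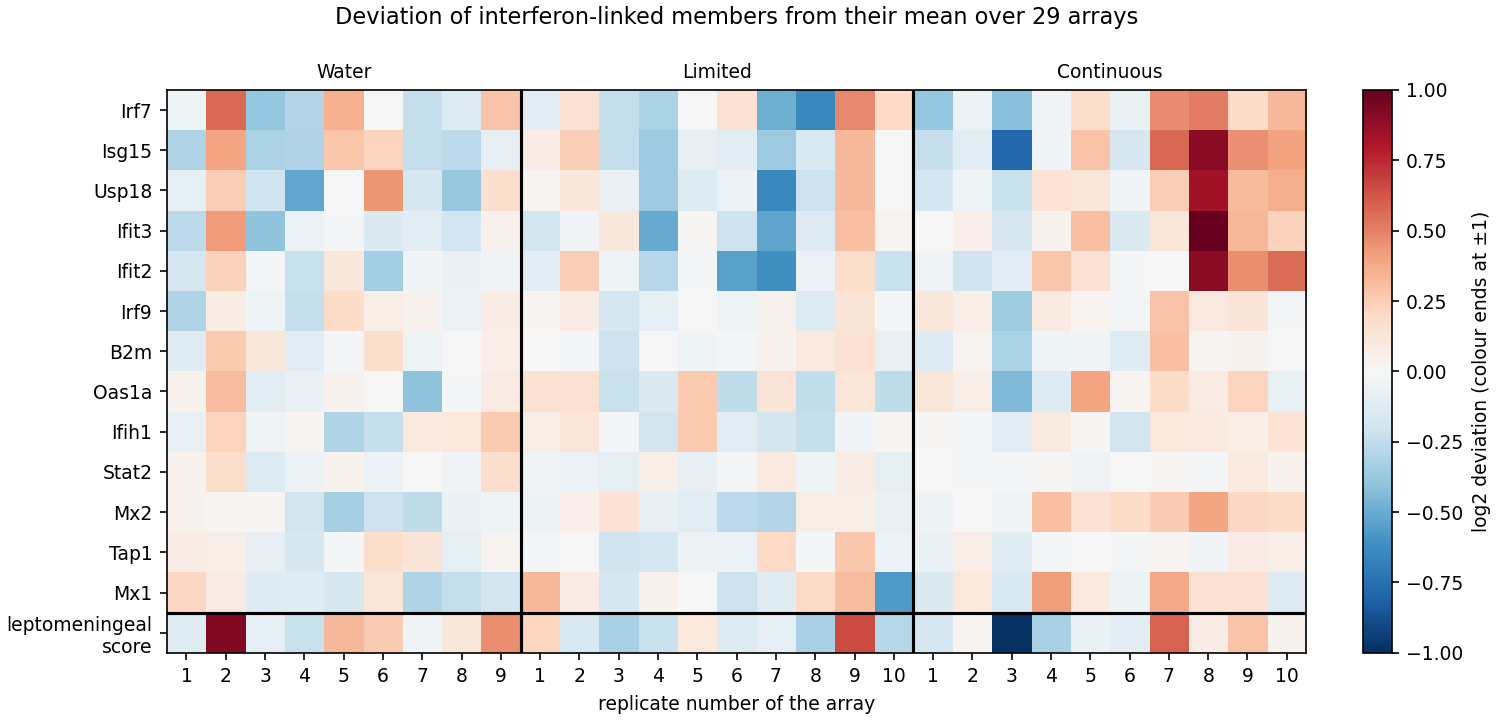
Deviation (log2) of interferon-linked members from their own mean over 29 arrays, by group and replicate, with the leptomeningeal marker score in the bottom row. Continuous replicate 8 is high in Isg15, Usp18, Ifit3 and Ifit2, and continuous replicate 3 is low in Isg15 and in the leptomeningeal score.

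The correlation of 12 interferon-linked members with Irf7 was tested on the group-centred values. All 12 were positive and 7 passed an adjusted permutation p of 0.05 over the 12. The share of all tested probe sets that correlate with Irf7 at that level was not computed. The count therefore does not show a trait particular to these members. Isg15 followed Irf7 most closely (r = 0.83, rho = 0.86), then Usp18 (r = 0.78, rho = 0.84) and Ifit3 (r = 0.70, rho = 0.69). The permutation p of r was 1e-05 for each of these, the smallest that 100000 permutations can give, and the adjusted permutation p was 4e-05. For rho the adjusted permutation p was 6e-05 for Isg15 and Usp18 and 0.00044 for Ifit3. Irf9, the DNA-binding partner of Stat2, had r = 0.57 and rho = 0.61 (adjusted permutation p = 0.00348 and 0.00297), and Ifit2 had r = 0.53 and rho = 0.47 (adjusted permutation p = 0.00958 and 0.0288). B2m (r = 0.48, rho = 0.40) and Oas1a (r = 0.46, rho = 0.42) passed on r, with adjusted permutation p of 0.0178 and 0.0257, and not on rho (0.0555 for each). Ifih1 (r = 0.40), Stat2 (0.36), Mx2 (0.32), Tap1 (0.32) and Mx1 (0.19) did not pass. Mx2, the member nearest to a group difference, was thus not among those that passed here, and its r was 0.03 within water, 0.09 within limited and 0.81 within continuous arrays, a difference between groups that was not tested.

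Limited replicate 9 and water replicate 2 lay farthest from the median of Irf7. Without them r was 0.80 for Isg15, 0.74 for Usp18, 0.62 for Ifit3 and 0.53 for Irf9, which still passed, while Ifit2 (0.45), Oas1a (0.37) and B2m (0.36) did not, so the latter relations rest in part on those arrays. Without the 5 arrays apart, 10 of 12 passed, Mx2 among them (r = 0.45, adjusted permutation p = 0.0402). The r of Isg15 was 0.84, 0.77 and 0.95 within water, limited and continuous arrays.

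**Figure D4:**
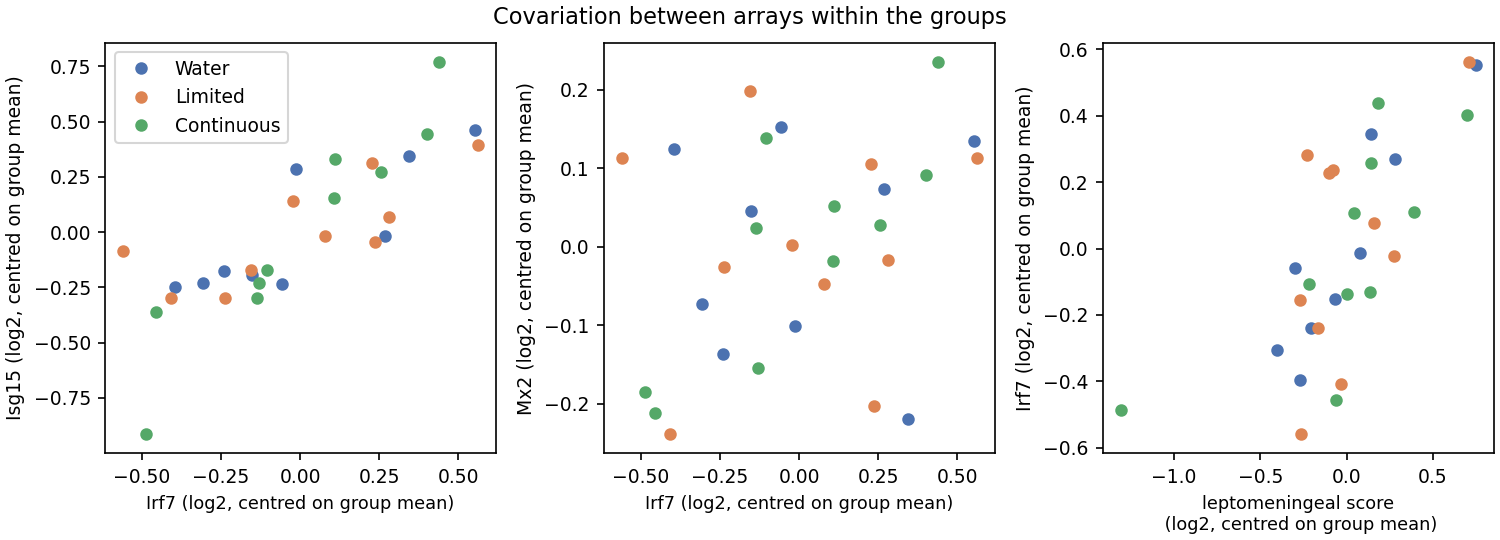
Group-centred values (log2) of Isg15 against Irf7, Mx2 against Irf7 and Irf7 against the leptomeningeal marker score, 1 point per array, coloured by group. Isg15 follows Irf7 over all 3 groups (r = 0.83), and Irf7 follows the leptomeningeal score (r = 0.71) with continuous replicate 3 far to the left.

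Markers of other cell types moved with these members, in correlations added after the data were seen. The leptomeningeal score is the mean deviation of 16 markers of the membranes around the brain, of which 15 passed the filter and only Foxc1 did not. It lay between -0.22 and 0.93 on the water arrays, between -0.32 and 0.65 on the limited arrays and between -1.41 and 0.59 on the continuous arrays. Irf7 correlated with it at r = 0.71 and rho = 0.71 (adjusted permutation p = 0.0001 and 0.0005 over 10 array measures, r = 0.67 without the 2 arrays farthest on the score). Isg15 did so at r = 0.78 and rho = 0.69 (adjusted permutation p = 0.0003 for each, r = 0.65 without the 2 farthest). Irf7 also correlated with the peripheral immune score (r = 0.71, rho = 0.68, adjusted permutation p = 0.00015 and 0.0005, r = 0.66 without the 2 farthest), of whose 17 measured markers 8 passed the filter. The 8 were Ptprc, Ly6c, Lyz2 (mean 12.3), the T cell genes Cd3e, Cd2 and Cd8a and the border macrophage genes Mrc1 and Lyve1. Cd3e and Cd2 (mean 6.89 for each) lay just above the cut of 6.86. The T cell genes Cd3d and Cd3g, the B cell gene Ms4a1, the granulocyte gene S100a8 and the border macrophage gene Cd163 were below it. So were Cd4, Cd79b, S100a9 and Nkg7. Irf7 passed with 3 further scores on both r and rho, those of blood (r = 0.59, rho = 0.50, adjusted permutation p = 0.0043 and 0.0206, r = 0.50 without the 2 farthest), of endothelial and mural cells (r = 0.53, rho = 0.48, adjusted permutation p = 0.00674 and 0.0218, r = 0.36 without the 2 farthest) and of choroid plexus and ependyma (r = 0.51, rho = 0.52, adjusted permutation p = 0.00445 and 0.0104, r = 0.46 without the 2 farthest). Of the 6 measured choroid plexus and ependyma markers 3 passed the filter, and limited replicate 9 had the highest score, 1.36. The blood score rests on 2 genes, Hbb and Alas2. The microglia score, from 15 markers that all passed, gave r = 0.21 and rho = 0.13 with Irf7 (adjusted permutation p = 0.376 and 0.599). Isg15 also passed on r and rho with the peripheral immune (r = 0.68), endothelial and mural (0.62), blood (0.45) and choroid plexus and ependyma (0.42) scores. Mx2 gave r = 0.27 and rho = 0.06 with the leptomeningeal score (adjusted permutation p = 0.485 and 0.860).

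Given the leptomeningeal score, 3 of the 12 members still passed with Irf7, namely Usp18 (partial r = 0.66), Isg15 (0.62) and Ifit3 (0.58), while Irf9 came to 0.00, Oas1a to -0.11 and B2m to -0.19. Given the microglia score, 8 passed. The loss was not particular to the leptomeningeal score. Given the peripheral immune score 4 passed on r, and Irf9 came to 0.14, Oas1a to 0.11 and B2m to -0.19. Given the endothelial and mural score 4 passed on r. The part of leptomeningeal or other tissue in these relations was not tested further.

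**Figure D5:**
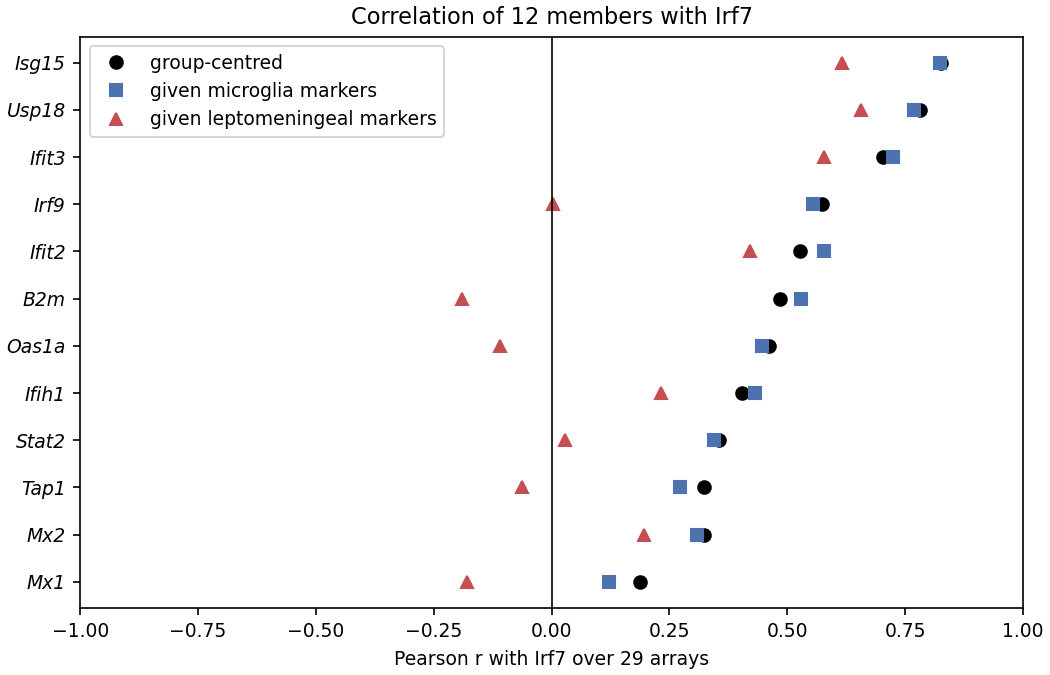
Pearson r of 12 members with Irf7 over 29 group-centred arrays (circles), and the partial r given the microglia score (squares) or the leptomeningeal score (triangles). The squares lie near the circles, while the triangles of Irf9, Oas1a and B2m lie at 0.00, -0.11 and -0.19. The partial r given the peripheral immune or the endothelial and mural score is not drawn.

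The cytokine receptor and chemokine members with the most negative differences followed the same score. Il1r1 correlated with it at r = 0.93 and rho = 0.89 and Cxcl12, at its brightest probe set, at r = 0.88 and rho = 0.82. The permutation p was 1e-05 in each case, the smallest these permutations can give, and adjusted p-values were 0.0001 or less. Without the 2 arrays farthest on the score, r was 0.91 for Il1r1 and 0.86 for Cxcl12. These relations were not particular to that score. Il1r1 and Cxcl12 also passed on r with the peripheral immune (0.84 for each) and the endothelial and mural score (0.81 and 0.62). They did so with the blood (0.55 and 0.65), choroid plexus and ependyma (0.46 and 0.39) and medium spiny neuron scores (-0.52 and -0.64). On rho, Il1r1 did not pass with the blood score, and neither gene passed with the medium spiny neuron score. Il1r1 also passed with the microglia score on r (0.54) and not on rho. The share of all tested probe sets that correlate with these scores was not computed. The leptomeningeal score was 0.18 ± 0.36 on water arrays, -0.06 ± 0.31 on limited arrays and -0.11 ± 0.52 on continuous arrays (SD). Its difference from water had an exact two-sided permutation p of 0.200 for continuous and 0.142 for limited access, and all 15 tested markers had a negative difference in both comparisons. With the score as a covariate the continuous difference of Il1r1 was -0.10 ± 0.06 and that of Cxcl12 was -0.06 ± 0.06. That of Isg15 was 0.39 ± 0.10 (adjusted p = 0.126), against 0.20 without the covariate. The endothelial and mural score was also lower with continuous ethanol (-0.08 ± 0.11 against 0.08 ± 0.15 with water, SD), with an exact two-sided permutation p of 0.00843 and an adjusted p of 0.0786, and 2 of its 17 markers passed the adjusted test in limma. The microglia score gave an exact two-sided permutation p of 0.834, and none of its 15 markers was called.

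Further genes of the same pathways were read from wider lists. No tested gene of these lists passed the adjusted p in any comparison. The unadjusted counts below stand against 16.1% of all tested probe sets in continuous minus water (6.48% in the lower direction) and 9.31% in limited minus continuous. Of 30 other interferon response genes 4 passed the unadjusted p in continuous minus water (13.3%), among them Mavs, the mitochondrial adaptor of RNA sensors, at -0.15 ± 0.05 (adjusted p = 0.153), and Eif2ak2, the double-stranded RNA-activated kinase, at 0.16 ± 0.08 (adjusted p = 0.298). In limited minus continuous 5 of the 30 passed it (16.7%), with Socs1, a feedback inhibitor, at 0.20 ± 0.07 and Eif2ak2 at -0.20 ± 0.07 (adjusted p = 0.526 for each). Of 18 other antigen presentation genes 2 passed it in continuous minus water (11.1%), with the class II gene RT1-Ba at -0.16 ± 0.05 (adjusted p = 0.176). Of 21 other Toll-like receptor and NF-kB genes 3 passed it in continuous minus water (14.3%) and 4 in limited minus continuous (19%), where Tab1, a partner of the kinase Tak1, differed by -0.12 ± 0.03 (adjusted p = 0.526). Of 27 other cytokine and chemokine genes 7 passed it in continuous minus water (25.9%), 6 of them lower. The death receptor Tnfrsf21 differed by 0.19 ± 0.05 (adjusted p = 0.136) and the alarmin Il33 by -0.15 ± 0.05 (adjusted p = 0.188).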

How the data were processed

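Total RNA of the nucleus accumbens shell was hybridised to Affymetrix arrays. The authors deposited 1 log2 expression value per probe set and array, made with RMA per the submitters' processing notes. The software version is not given in the sources used here. RMA equalises the arrays' distributions, so array SD and medians differ little and a shift of most genes would be removed. The values hold no counts, and the number of arrays limits the precision. No column of another series was present.

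Probe sets were named through the platform annotation. Of 31099 probe sets, 20832 had 1 symbol, 436 had several and 9831 had none, and 57 controls were left out. A gene stands for its brightest probe set with exactly 1 symbol. The dimmest 30% by mean over 29 arrays were left out, which left 21729. limma 3.58.1 in R 4.3.3 (lmFit, eBayes) fitted all 3 groups together, two-sided, with Benjamini-Hochberg adjustment over all tested probe sets and a threshold of 0.05. SE and intervals are the moderated ones. A marker score is the mean deviation of a marker list from each gene's mean. Score differences used exact permutation tests, adjusted over 10 measures, and correlations used 100000 permutations within groups. Promoters come from RefSeq (GRCr8), 300 bases each. The fit was tested on simulated data.

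Members, lists and marker lists were chosen with earlier results of these data known. Every member is named, with full statistics for up to 6 members of smallest p per comparison and for interferon-stimulated members, and up to 4 genes of each wider list. Il1r1 and Cxcl12 were chosen for the marker correlations after their values were seen, and the Irf7 promoter was added to the printed ones. Alternatives were the filter, normalization, prior, array weights, covariates, arrays left out, the replicate number as a block and the choice of probe set. The correlations of members with array measures, marker scores among them, were added after seeing the data. So were the partial correlations given leptomeningeal, endothelial and peripheral immune scores.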

Additional observations from a re-analysis of the deposited data

Results flagged for a closer look

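In 16 of 144 groups of values of single members (48 members, 3 groups each), the highest or lowest array lay far from the rest by Dixon's test. For independent and normally distributed values, chance gives about 1 in 20 such groups, or 7.2 of 144. Members share arrays, and the share of such flags over all tested probe sets was not computed. The flags are therefore no result about the members as a set. The 16 flags fell on 15 genes.

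Continuous replicate 3, the array with the lowest leptomeningeal score, was lowest for Irf1 (7.69, the others 8.02 to 8.41), Irf9 (8.18, the others 8.51 to 8.82) and Myd88 (8.19, the others 8.43 to 8.69). Continuous replicate 8, the highest array for Mx2, Ifit2, Isg15 and Usp18, was highest for Ifit3 (7.86, the others 6.61 to 7.11). Continuous replicate 7 was highest for Nfkbib (9.53, the others 9.26 to 9.38).

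Among water arrays, replicate 6 was highest for Tlr4 (7.11, the others 6.62 to 6.81), Socs3 (7.53, the others 7.01 to 7.25) and Il1a (6.45, the others 5.79 to 6.11). Water replicate 5 was lowest for Tlr7 (6.03, the others 6.30 to 6.56) and Rela (9.08, the others 9.34 to 9.49) and highest for Tnf (6.92, the others 6.29 to 6.56). Water replicate 2 was highest for Il6r (8.61, the others 8.08 to 8.34) and Ccl2 (6.07, the others 5.24 to 5.58). Among limited arrays, replicate 6 was highest for Socs3 (7.62, the others 6.89 to 7.22), and replicate 9 for Il1r1 (8.79, the others 7.91 to 8.36) and Casp1 (8.05, the others 7.62 to 7.80). Water replicates 2, 5 and 6 and limited replicate 6 are among the 5 arrays apart from the others. The causes were not tested.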

How the results depend on the processing

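Over 17 alternatives, 108 member differences gave 1719 recomputed values. Of these, 1611 kept their sign and side of the threshold, 106 changed sign without passing the test in either fit, 2 newly passed and 0 were lost or reversed. The 2 were Mx2 in continuous minus water, so that 1 member passed with the stricter filter (the dimmest 50% left out) and 1 with the leptomeningeal covariate. Members at an unadjusted p of 0.05 in continuous minus water numbered 4 with array SD as a covariate, 11 with the leptomeningeal covariate and 4 with the 5 arrays apart as a block, against 7. All tested probe sets at that level made up 5.87%, 14.1% and 7.64% in these fits, against 16.1%. In limited minus water 5 passed it with array weights (4.42% of all probe sets), against 3, and in limited minus continuous 1 passed it with the stricter filter (9.02%), against 3. Over the 3 groups 3 passed it with array SD, 9 with the leptomeningeal covariate and 3 with the block of 5 arrays, against 5, where 4.39%, 10.4% and 6.19% of all probe sets did. The causes were not tested, except that the stricter filter tests fewer probe sets.

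Leaving out each array in turn gave 0 to 1 members past the adjusted p in continuous minus water. That 1 was Mx2, without continuous replicate 1 (adjusted p = 0.0345), limited replicate 6 (0.0406), limited replicate 7 (0.0469) or water replicate 1 (0.0490). The adjusted p of Mx2 was highest without water replicate 5 (0.165), water replicate 6 (0.153) or continuous replicate 8 (0.145). Leaving out each array gave 0 in limited minus water, 0 in limited minus continuous and 0 over the 3 groups. At the unadjusted p it gave 6 to 10, 2 to 5, 2 to 4 and 3 to 6 members, where 12.3% to 19.5%, 3.48% to 5.87%, 5.24% to 12.1% and 9.02% to 14.2% of all probe sets passed it. The 5 in limited minus water came without continuous replicate 7, limited replicate 9 or water replicate 4, and the 3 over the 3 groups without continuous replicate 8.

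Of the 12 correlations with Irf7, 7 passed, and 3 did given the leptomeningeal score, 3 given that score without Serping1 (a marker that interferon also induces), 4 given the endothelial and mural score, 4 given the peripheral immune score and 4 without the 2 arrays farthest on Irf7. Oas1a turned to -0.11 given the leptomeningeal score and -0.12 without Serping1, Irf9 to -0.0047 without Serping1, and B2m to -0.19, -0.20 and, given the peripheral immune score, -0.19.

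Same-numbered arrays correlated at r = -0.24 to 0.34 in their deviations (12 of 28 pairs over 0.1), and 2 of 29 arrays were most like one of their own number, so the numbers were not taken to pair the arrays. With the replicate block, 0 members passed the adjusted p in each comparison, and Mx2 differed by 0.27 (adjusted p = 0.0809) in continuous minus water.

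Intervals, which are not adjusted for the number of tests, reached up to 0.31 log2 units to either side (Isg15). Differences of that size or smaller in the most variable members can go uncalled with these arrays, and larger ones can too. Il1r1 at -0.32 in continuous minus water and Ifit2 at -0.34 in limited minus continuous did not pass the adjusted p. The 12 dim members lie near the lower end of the array.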
